A study of Mus musculus with 2 samples.

Results

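Along the mouse genome, the RNA recovered with Flag-tagged Zc3h10 was called as peaks that often stood side by side. These clustered peaks were chosen by their called positions: a peak belongs to them if it lay within 10000 bases of a neighbour, on chromosomes 1 to 19 or X. They number 397 of the 938 peaks on these chromosomes (42.3%, exact binomial interval 39.1% to 45.6%) and of the 947 peaks in the whole list. They fall into 163 loci. The other 541 peaks stood alone and are called isolated here.

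The samples were C2C12 cells, a mouse myoblast line. The genotype label of the GFP library is wild type with GFP, and that of the other library is overexpression of Zc3h10. In the Flag-Zc3h10 group the virus expressed mouse Zc3h10 with an N-terminal Flag tag from a CMV promoter, so the protein was overexpressed. In the GFP group the same kind of virus expressed GFP from that promoter. Each group is 1 library, infected at a multiplicity of 5 for 48 h and made from 10 ng of RNA. RNA bound to anti-Flag beads was sequenced in the Flag-Zc3h10 group. The antibody entry of the GFP library is "none", while the protocol speaks of beads for each sample, so what the control selected is not settled. The Flag-Zc3h10 library kept 10439835 tags after duplicate filtering and the GFP library 10849213. The list names no genes, so neither the cell type nor the transcript behind a peak was checked here.

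Zc3h10 is a protein with CCCH zinc fingers, small folds held by a zinc ion, which many RNA-binding proteins use to contact RNA. In this series it was studied in muscle cells for its part in mitochondrial function, iron and cardiolipin, the lipid typical of the inner mitochondrial membrane. In RNA immunoprecipitation without crosslinking and trimming, a whole RNA molecule can come down with the protein, so reads cover its exons and not only the contact site. The cDNA was primed on the poly(A) tail and copied to full length before it was cut by Tn5. A spliced RNA read in this way gives blocks of signal at its exons with empty introns between them, and the caller can list 1 RNA as several peaks. Peaks of 1 locus may thus share an RNA and are not replicates. Whether they do was not tested, because no gene models of the mm9 build were used. The strand is not in the list either, so the ends of a locus are called first and last in chromosome order and not 5′ and 3′.

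Each peak has a pileup, the number of 500-base fragments over its summit in the Flag-Zc3h10 library. Its fold enrichment is that pileup over what the GFP library led the caller to expect around it. That expectation, pileup divided by fold enrichment, is called the control level below. All 3 come from the contrast that called the peaks and thereby chose them. They are therefore given as descriptions, without a test of the conditions, and no replicate error exists for any of them. Binomial intervals are given for some shares and ratios and cover counting error within these libraries only.

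Most loci were pairs. Of the 163 loci, 123 held 2 peaks, 26 held 3, 6 held 4, 5 held 5, and 1 each held 6, 7 and 11. The 40 loci of 3 or more held 151 peaks. Clustered peaks occurred on each of the 20 chromosomes considered, with 17 loci on chromosome 7, 16 on chromosome 2 and 2 on X. Chromosome 13 had the highest share, 24 of its 37 peaks (64.9%), of which 11 lay in 1 locus. On chromosome 6 only 7 of 30 peaks were clustered (23.3%).

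Neighbours in a locus were mostly close. The 234 gaps between them had a median of 1530 bases, with quartiles of 514 and 3522 bases. Under 1000 bases lay 97 gaps (41.5%), and 37 gaps (15.8%) were 5000 bases or longer. The smallest gaps were 53 bases at chr13:78328336-78328949 and its neighbour, 54 bases inside chr11:102945419-102951223 and 57 bases inside chr8:19924138-19927180. These are just above the tag length of 51 bases, so nearly adjoining blocks were listed as separate peaks. The smallest width in the list, 500 bases, equals the fragment length.

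The limit of 10000 bases cuts through a continuous range of gaps. The largest gaps inside it were 9632, 9724 and 9920 bases. At the first, chr17:34854387-34856735 was enriched at least 16.84-fold, over a control at the genome-wide background, and its neighbour chr17:34866368-34867324 3.51-fold. At the second, chr17:35093720-35096350 and chr17:35106075-35109301 were enriched 2.90-fold and 3.18-fold. At the third, chr11:87886329-87887488 and chr11:87897409-87897917 had 1.79-fold and 1.33-fold. The smallest gaps outside it were 10071, 10134 and 10173 bases. They separate chr2:10162050-10162717 (8.66-fold) from a peak of 6.86-fold, chr11:49640213-49640848 (13.51-fold) from a peak of 4.62-fold, and chr16:65828167-65828853 (4.65-fold) from a peak of 6.03-fold. Neighbours with unlike and with similar enrichment occurred on either side of the limit.

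**Figure D1:**
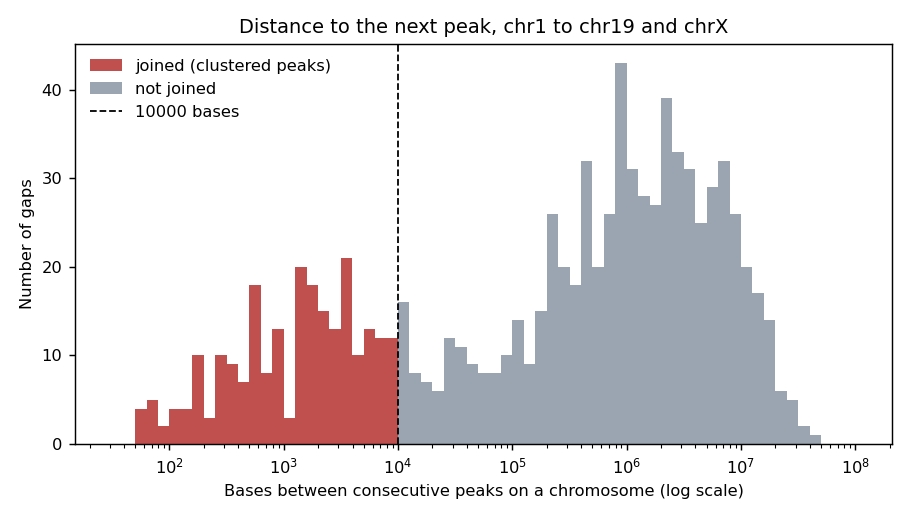
Number of gaps (y axis) by the bases between consecutive peaks on a chromosome (x axis, log scale), for chromosomes 1 to 19 and X. The 234 gaps of clustered peaks (red) have a median of 1530 bases, and the dashed line at 10000 bases marks where joining stops.

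Clustered peaks had a larger median width than isolated ones and a similar median pileup, without any matching on pileup. Their width had a median of 991 bases (quartiles 592 and 1579), against 776 bases (580 and 1253) for isolated peaks. The median pileup was 119 fragments (59.0 and 324) against 125 (48.0 and 280.0). The median control level was 48.2 against 54.8. Without the 46 clustered peaks of a recurring layout described further on, the median width was 917 bases and the median pileup 100 fragments. The 397 peaks covered 536427 bases, 45.9% of all bases under peaks on these chromosomes. The widest, chr9:3005807-3038638, took 32832 of them.

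The share with at least 2-fold enrichment was higher among clustered than isolated peaks, while the intervals of the shares with at least 4-fold enrichment overlapped. Fold enrichment had a median of 3.12 (quartiles 2.26 and 4.16), against 2.61 (1.76 and 3.95) for isolated peaks. At least 2-fold enrichment was listed for 328 of 397 clustered peaks (82.6%, interval 78.5% to 86.2%), where 72.7% of all 938 peaks reached it. Among isolated peaks it was 354 of 541 (65.4%, interval 61.3% to 69.4%). At least 4-fold enrichment was listed for 109 clustered peaks (27.5%, interval 23.1% to 32.1%), near the 25.6% of all peaks, and for 131 isolated ones (24.2%, interval 20.7% to 28.1%). At least 10-fold enrichment was listed for 11 (2.77%), near the 2.56% of all peaks. The intervals cover counting error only and treat peaks as independent. At 13 clustered peaks the control level was at the genome-wide background of 2.79, so their fold enrichment is a lower bound. A −log10 q of at least 10 was listed for 306 clustered peaks (77.1%) and 291 isolated ones (53.8%), where 63.6% of all 938 peaks reached it.

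Within a locus the height was uneven, more so than the enrichment. The ratio of the highest to the lowest pileup had a median of 1.84 over the 163 loci (quartiles 1.38 and 3.30, range 1.0 to 21.6). It reached 2 in 75 loci, 5 in 25 and 10 in 9, and stayed under 1.2 in 19. The same ratio of fold enrichment had a median of 1.35 (quartiles 1.11 and 1.79), reached 2 in 33 loci and 5 in 4. The control level varied most, with a median ratio of 2.53, and it reached 10 in 17 loci. In 131 loci (80.4%) fold enrichment was more even than pileup. This order of the 3 measures was not particular to loci. Consecutive peaks over 1000000 bases apart had median ratios of 2.78 for pileup, 1.64 for fold enrichment and 3.99 for the control level. For gaps over 10000 and up to 100000 bases the ratios were 2.19, 1.43 and 2.70. The coefficient of variation along a locus had a median of 38.3% for pileup, 19.4% for fold enrichment and 58.3% for the control level.

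The peak with the most Flag-Zc3h10 fragments was seldom the most enriched. It was so in 44 of 163 loci (27.0%), and in 6 of the 40 loci of 3 or more peaks. It held the highest control level of its locus in 152 loci (93.3%) and was the widest peak in 129 (79.1%). The most enriched peak was the one with the lowest control level in 117 loci (71.8%). Because fold enrichment is computed from pileup and control, these counts are linked by construction. The q-value cutoff, which lists low peaks only at strong enrichment, links height and enrichment further. In 3 loci the highest pileup was tied, and the first of the tied peaks was counted.

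Larger loci were more uneven. The median pileup ratio was 1.69 in the 123 pairs and 3.02 in the 40 loci of 3 or more, and the median fold enrichment ratio was 1.28 and 1.79. More peaks give more chances of an extreme, so the ratio grows with their number also where the spread is equal. Peaks filled a median of 71.0% of the bases of a pair and 35.2% of those of a larger locus. The median span was 5095 bases for pairs and 10025 bases for larger loci.

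**Figure D2:**
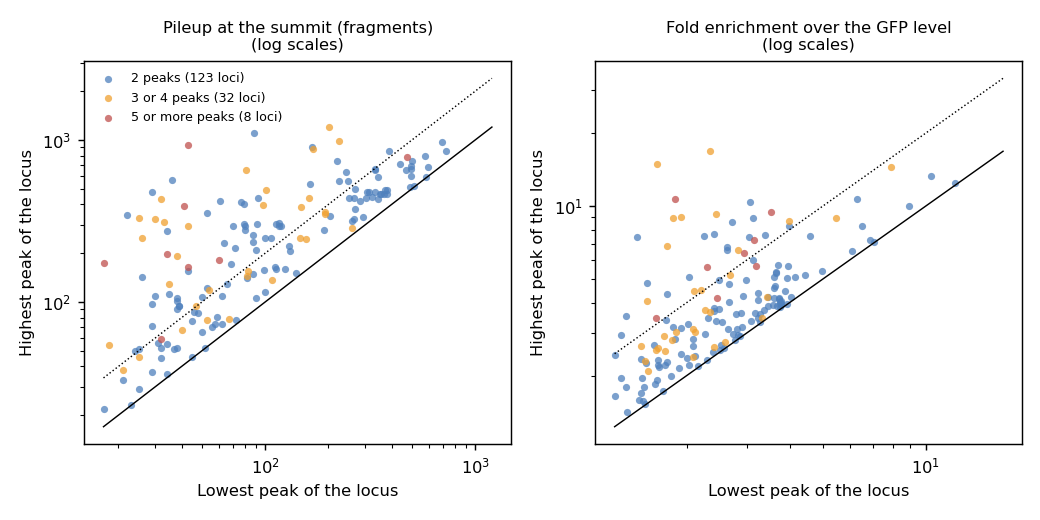
Lowest (x axis) against highest (y axis) peak of each of the 163 loci, for pileup in fragments (left) and fold enrichment over the GFP level (right), on log scales. The solid line marks equal values and the dotted line a ratio of 2, which 75 loci reach for pileup and 33 for fold enrichment.

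In the longer loci the highest peak usually stood at an end. In 34 of the 40 loci of 3 or more peaks (85.0%) the highest pileup was in the first or the last peak, 13 times the first and 21 times the last. End peaks make up 80 of the 151 peaks of these loci (53.0%). This share pools loci of unlike size and is only a rough scale, as ends are 2 of 3 peaks in the 26 loci of 3. The lowest pileup was at an end in 25 loci. Fold enrichment was highest at an end in 31 loci and width in 32. In 15 of the 40 loci the pileup rose or fell at every step from first to last. Loci of 3 peaks have few possible orders, and no scale was computed for this count. Among the 123 pairs the first peak was higher or tied in 60 and the last in 63, so neither side of the chromosome prevailed.

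Neighbours resembled each other in pileup and in control level up to gaps of about 5000 bases, and less steadily in fold enrichment and width. Across the 234 neighbour pairs, Spearman's rho between the pileups of a peak and its next neighbour was 0.63. It was 0.62 for the control level, 0.57 for fold enrichment and 0.31 for width. Without the 23 pairs of a recurring layout described further on, the rho was 0.56 for pileup, 0.57 for fold enrichment and 0.14 for width. The neighbours share the library and often the local control estimate. The closest can also share fragments, as summits in pairs lay as few as 221 bases apart. A fragment of 500 bases can then count at both summits, so the likeness at the smallest gaps is partly built in. For the 29 pairs with gaps of at most 200 bases the rho of pileup was 0.88 and the median pileup ratio 1.41. For the 58 pairs with gaps over 2000 and up to 5000 bases the values were 0.69 and 1.58. For the 37 pairs with gaps over 5000 bases the rho was 0.11 and the median ratio 2.50, with a control ratio of 4.88. These 37 pairs included 23 from loci of only 2 peaks, where the rho was 0.22 and the ratio 2.63. For the control level the rho was 0.90 at gaps of at most 200 bases. It was 0.55 to 0.73 over 200 and up to 5000 bases, and 0.037 over 5000 bases. For fold enrichment the rho was 0.40 at gaps over 500 and up to 1000 bases. It was 0.68 to 0.81 in the other classes up to 5000 bases. For width the rho was 0.56 at gaps of at most 200 bases and 0.43 over 200 and up to 500. It was 0.37 over 500 and up to 1000 bases, 0.056 up to 2000 and 0.29 up to 5000.

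Peaks further apart give a scale for these values. Consecutive peaks with gaps over 10000 and up to 100000 bases (95 pairs) had a rho of pileup of 0.38 and a median ratio of 2.19. For fold enrichment their rho was 0.40 and for the control level 0.42. Those over 1000000 bases apart (366 pairs) had a rho of pileup of -0.0037 and a median ratio of 2.78. The 37 pairs with the widest gaps inside loci therefore had a rho nearer to that of the most distant peaks than did the pairs over 10000 and up to 100000 bases apart. The drop is not steady with distance, and the number of pairs per class is small.

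Some of the differences between neighbours lay within counting error. For 70 of the 234 neighbour pairs (29.9%) the 95% exact binomial interval of the pileup ratio covered 1, so a difference in height was not detectable at this depth. The count was 4 of 37 for gaps over 5000 bases and 12 of 29 for gaps up to 200 bases. A ratio of at least 2 was found for 86 neighbour pairs (36.8%), among them 25 of the 37 with gaps over 5000 bases. The intervals take fragments as independent, which amplified reads without molecular identifiers are not.

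**Figure D3:**
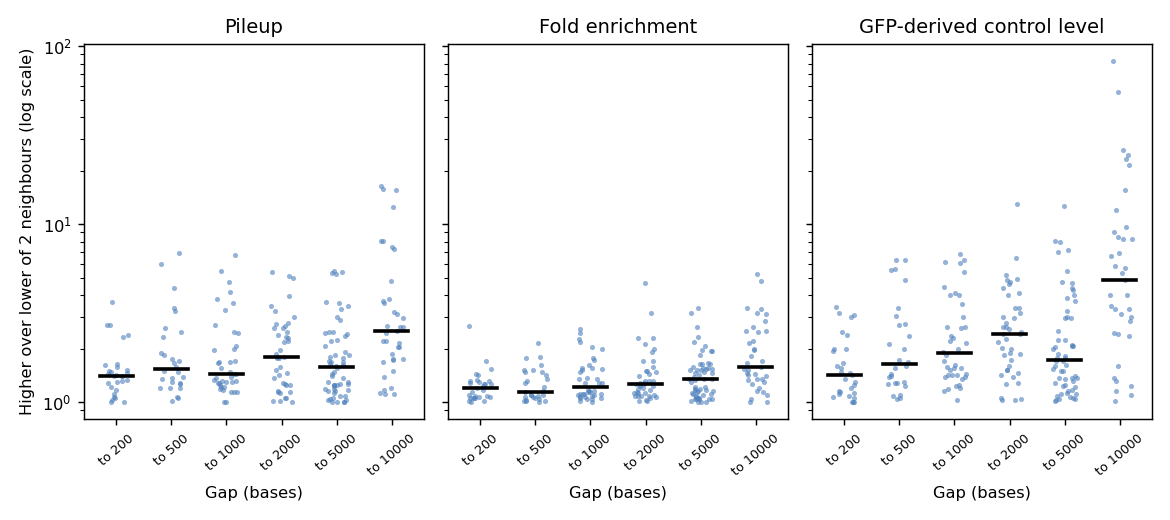
Higher over lower value of 2 neighbouring peaks (y axis, log scale) by gap class in bases (x axis), for pileup, fold enrichment and control level; each point is 1 of 234 neighbour pairs and each bar a median. The medians of the last class, 2.50, 1.59 and 4.88, are the highest of their panels.

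The locus with the most peaks was among those without a trend. At chr13:93521685-93547504, 11 peaks were spread over 25820 bases, of which they filled 42.6%. In chromosome order their pileups were 119, 119, 99, 100, 43, 164, 85, 48, 69, 83 and 79 fragments. The highest was the sixth peak, chr13:93532322-93534060, which at 1739 bases was also the widest. The lowest stood directly before it, so neighbours 994 bases apart differed 3.81-fold. Fold enrichment ran from 2.94 to 6.43, highest in the third peak, where the control level was 15.4 against 32.7 in the peak before. The coefficient of variation of pileup was 37.7%, against a median of 54.7% over the 40 loci of 3 or more peaks.

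The locus of 7 peaks at chr12:81268196-81285933 was the least even of all. Its first peak, 1850 bases wide, reached 928 fragments. The next 2 peaks, which are 123 bases apart, had 176 and 259, and the last 4 had 89, 89, 112 and 43. The control level fell with the pileup, from 365 fragments in the first peak to 7.69 in the last. Fold enrichment therefore stayed between 2.29 and 3.90 over the first 6 peaks and was 5.59 in the last. A pileup ratio of 21.6 thus went with a fold enrichment ratio of 2.44.

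The locus of 6 peaks at chr15:36525092-36539108 showed the opposite pattern. Its pileups, 791, 600.0, 636, 556, 472 and 744 fragments, were high throughout and had a ratio of 1.68. Its control level decreased along the chromosome from 423 to 148 over the first 5 peaks and was 216 in the last. Fold enrichment was 1.87, 1.63, 2.20, 2.91, 3.19 and 3.44, so it was higher toward the last peak while the height was not.

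In 4 of the 5 loci of 5 peaks the last peak was highest, and in the other it was the first. At chr2:51893625-51912438 the pileups were 60, 60, 76, 99 and 182 fragments, and fold enrichment went from 4.16 in the first peak to 2.45 in the fourth and 3.0 in the last. At chr3:80647553-80666432 the first peak had 174 fragments and the others 36, 35, 17 and 42. Fold enrichment there was lowest, 3.14, in that high first peak and 4.04 to 7.27 in the others. The contrast between height and enrichment was therefore present in both of these loci.

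At chr5:130704966-130719621 the pileups were 41, 98, 82, 108 and 394 fragments. The last peak was 2910 bases wide and had a control level of 213, against 3.85 in the first. Fold enrichment was 10.65, 5.36, 3.28, 3.62 and 1.85, so the lowest peak was the most enriched and the highest the least. At chr9:65114924-65128471 the pileups were 34, 56, 64, 50 and 198 fragments. Fold enrichment was 3.52 in the last peak and 9.5 in the middle one, whose control level was 6.74. The locus chr9:78179155-78189773 was the most even of these, with 32, 43, 49, 47 and 59 fragments and fold enrichment from 3.19 to 5.66.

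**Figure D4:**
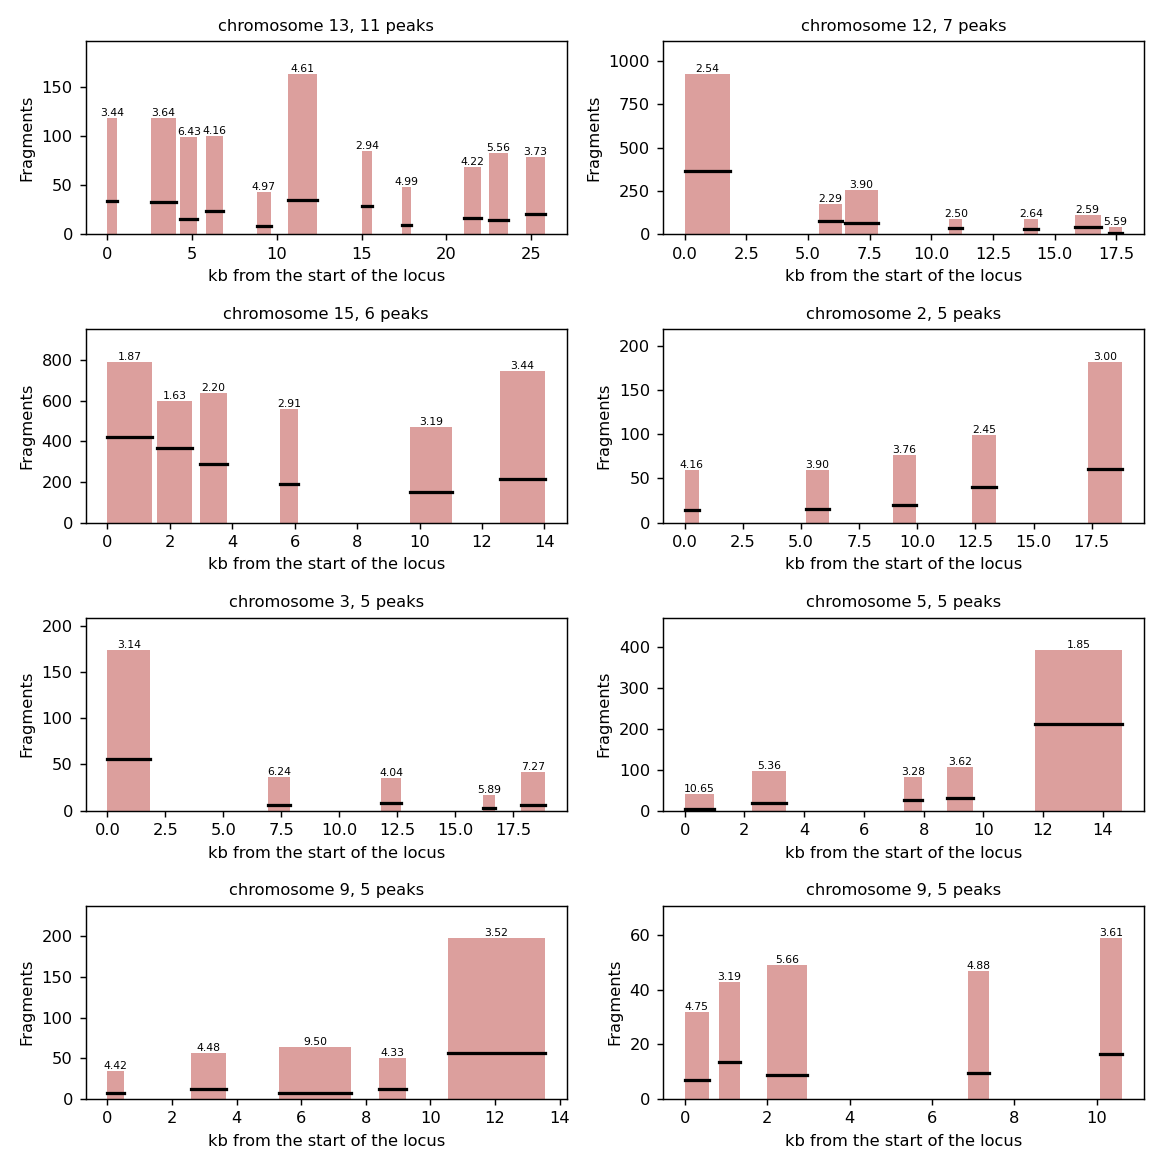
The 8 loci of 5 or more peaks, each peak drawn as a bar at its place in kb from the start of the locus (x axis), with its summit pileup in fragments as height (y axis), its control level as a black line and its fold enrichment above it. The highest bar is at an end in 7 panels; in the chromosome 13 panel it is the sixth of 11.

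Among loci of 3 or more peaks, evenness in height and in enrichment were different properties. Loci are ordered here by the ratio of the highest to the lowest pileup. The most even was chr11:94799278-94804834, with 258, 267 and 286 fragments (ratio 1.11) and fold enrichments of 2.09, 1.54 and 1.86. Next was chr9:78080062-78090416, with 67, 73 and 79 fragments and fold enrichments of 3.32, 3.45 and 3.42, a ratio of 1.04. Both measures were thus flat over its 10355 bases. Its second peak had the same width (1012 bases), pileup (73) and fold enrichment (3.45) as the first peak of the pair chr9:78109789-78116892. The peaks that follow these were 1468 and 1461 bases wide, at 79 and 77 fragments, after gaps of 4620 and 4631 bases. Whether the 2 stretches are copies that share reads was not tested. That pair lies between this locus and the even locus of 5 peaks described above.

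The third most even, chr14:69861118-69867887, had 136, 122 and 108 fragments, a ratio of 1.26. Its fold enrichment was 1.64, 4.41 and 14.96, a ratio of 9.12. The control level there was 82.9, 27.7 and 7.22, so the GFP level changed along the locus and the Flag-Zc3h10 height hardly did. The first 2 of these peaks are 152 bases apart. The remaining ones of the 5 most even were chr17:57354790-57364293, with 59, 53 and 78 fragments, and chr2:84605398-84614055, with 200, 157 and 244. Their fold enrichments ranged from 2.20 to 4.50 and from 2.26 to 3.73.

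The 5 least even included the loci of 7 peaks and of 5 peaks on chromosomes 12 and 3 given above. The others had 3 peaks each and a large difference between their ends. At chr16:78359761-78369504 the pileups were 430.0, 79 and 32 fragments, with fold enrichments of 2.83, 6.62 and 4.75. At chr7:31730623-31742354 they were 328, 45 and 25, with 1.82, 3.90 and at least 8.96, the last over a control at background. At chr12:109913262-109926945 the order was turned, with 30, 61 and 325 fragments and 4.45, 3.17 and 2.10. In each of the 5 the highest pileup was at an end. The coefficient of variation gives a partly different order. It places the locus of 6 peaks on chromosome 15 (18.7%) before chr17:57354790-57364293 (20.6%). Among the 5 least even it places chr1:157038580-157050351 (123%) and chr2:156752769-156774132 (118%). In their stead chr12:109913262-109926945 (117%) and the locus of 5 peaks on chromosome 3 (105%) drop out.

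The clustered peaks with the highest enrichment had modest pileups. The q-value cutoff lists a peak of few fragments only at strong enrichment, and one of many fragments already at weak enrichment. How height goes with enrichment is therefore partly set by the listing. Of the 5 loci with the most enriched peaks, that on chromosome 14 is given above. The 4 peaks of chr17:34854387-34873292 had 47, 81, 94 and 81 fragments. The first was enriched at least 16.84-fold over a control at background, and the others, which begin 9632 bases further on, 3.51-fold, 2.64-fold and 2.34-fold. Only that first peak stood apart, at the wide gap of the locus. At chr13:56389638-56398027 all 3 peaks were listed with strong enrichment, 9.02-fold, 7.90-fold and 14.55-fold, at 191, 38 and 56 fragments. Their control levels were 21.2, 4.81 and 3.85. Fold enrichment over a control level of a few fragments is imprecise, and no interval was computed for it. The pair chr8:19924138-19927180 was more even in pileup, at 29 and 37 fragments and at least 10.39-fold and 13.25-fold. The pair chr2:130216520-130220188 had 34 and 36 fragments, with at least 12.18-fold enrichment in the first peak and 12.47-fold, over a control level of 2.89, in the second. For these 2 pairs the interval of the pileup ratio covers 1, as for many low pairs.

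The 5 loci with the highest pileup ranged from low to above 4-fold enrichment at their highest peak. At chr2:98501966-98507906 the pileups were 530.0, 202 and 1202 fragments, at 3.75-fold, 3.44-fold and 4.21-fold. At chr6:51425234-51433236 a peak of 1111 fragments was enriched 1.23-fold, while its neighbour 6520 bases before it had 89 fragments and 2.43-fold. The 4 peaks of chr7:16698057-16703577 had 321, 321, 224 and 985 fragments at 2.11-fold to 3.02-fold. The pair chr7:53631782-53634146, 91 bases apart, had 693 and 968 fragments at 1.57-fold and 1.49-fold. The fifth of these loci was that of 7 peaks on chromosome 12. At the proximal end of chromosome 9 the pair chr9:2999877-3038638 spanned 38762 bases, more than any other locus, at 858 and 723 fragments and 3.94-fold and 5.04-fold enrichment. Whether these regions of high pileup are repeats that gather reads from many places was not tested. Keeping at most 2 tags per position bounds pileup and control level where tags are dense. Its effect on these heights and enrichments was not tested.

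A recurring layout was seen in 23 of the 123 pairs. In these, both peaks together spanned 5569 to 5970 bases, with a median of 5860, on 14 chromosomes. Each held a wide peak (median 3366 bases, quartiles 3329 and 3497) and a narrower one (median 1923 bases, quartiles 1850 and 2200), with a gap of 54 to 815 bases. In 13 pairs the wide peak came first along the chromosome and in 10 it came last, so the layout occurred in both directions. These pairs were chosen by a span from 5500 to 6000 bases and a gap of at most 1000 bases, which bounds the gap and the sum of the widths but not which peak is wider. Of the 28 pairs with such a span, the other 5 had gaps of 1267 to 2327 bases and were left out.

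The summits of most of the 23 pairs lay at similar places. From summit to summit the distance was 2500 to 3000 bases in 21 of the 23 pairs, with a median of 2797 bases. The exceptions were chr11:112643404-112649293, at 2470 bases, and chr2:72240201-72245769, at 4312 bases. The choice by span and gap itself narrows this distance. In the 5 pairs of that span with wider gaps it was 2706, 3085, 3591, 4084 and 4460 bases. The summit of the wide peak lay a median of 2329 bases from its outer end (quartiles 2217 and 2423) and that of the narrow peak 680.0 bases (quartiles 649 and 836). For example, at chr11:8820629-8826590 the wide peak came first, and its summit lay 2399 bases from the outer end and 2698 bases from the other summit. At chr10:8264795-8270654 the narrow peak came first, and the same distances were 2314 and 2865 bases.

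The wide peak was the higher one in all 23 pairs. Its pileup was 334 to 744 fragments (median 478), against 219 to 498 (median 346) in the narrow peak, and their ratio had a median of 1.40 (quartiles 1.31 and 1.55). The 95% interval of the ratio lay above 1 in 22 pairs; the exception was chr10:8264795-8270654, at 334 and 293 fragments. In the 100 other pairs the wider peak was the higher, or tied first, in 75. The largest ratio, 3.40, was at chr2:72240201-72245769, where the summit of the wide peak was also displaced. Next was chr19:38449912-38455881 at 2.00.

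Enrichment was nearly equal on both sides of these pairs. Fold enrichment of the wide peak had a median of 3.72 and that of the narrow peak 3.78, and the ratio of the higher to the lower had a median of 1.09 (quartiles 1.04 and 1.13). The wide peak was the less enriched in 16 pairs and the more enriched in 7. The control level had medians of 127 and 94.3 fragments, so the GFP library showed the same order of heights. In the 100 other pairs the median ratio of fold enrichment was 1.31. These 23 pairs hold 46 of the 397 clustered peaks. Without their loci, the median pileup ratio within loci was 2.12 and that of fold enrichment 1.47. No repeat annotation of mm9 was used here, so whether the pairs are copies of 1 element was not tested.

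**Figure D5:**
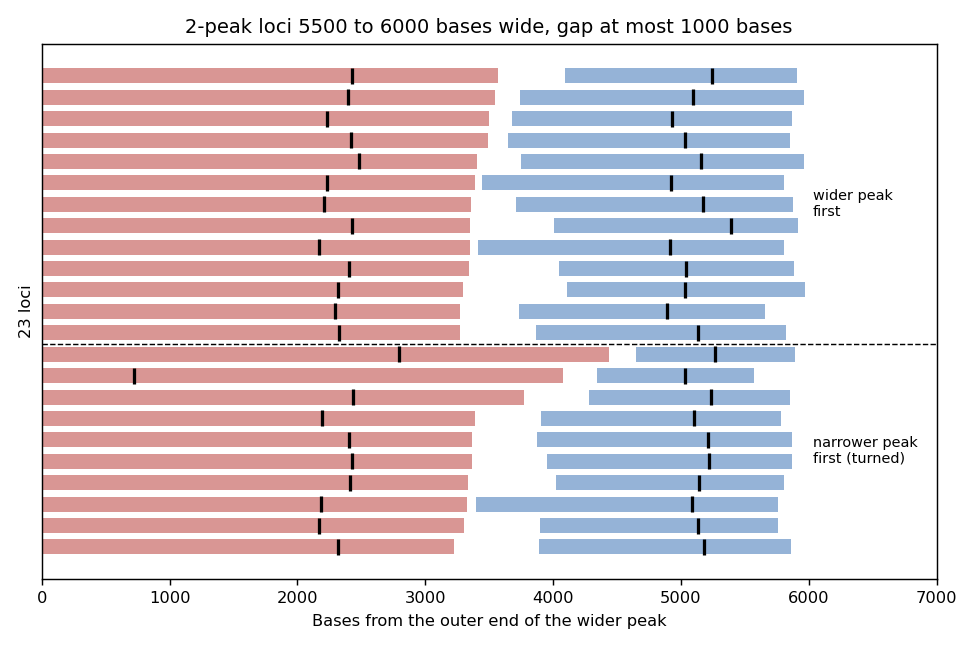
Layout of the 23 loci of 2 peaks that span 5500 to 6000 bases with a gap of at most 1000 bases, 1 row per locus (5 loci of that span with wider gaps are not drawn), with the wide peak in red, the narrow peak in blue and both summits as black ticks (x axis, bases from the outer end of the wide peak). The 10 loci below the dashed line were turned so that the wide peak is on the left. The ticks lie at similar places in most rows. In 1 row the wide peak's summit lies 719 bases from the end, and in another 2793 bases. The narrow peak's summit lies 537 to 680 bases from its outer end in the 10 turned loci and 521 to 937 bases in the other 13.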

How the data were processed

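RNA immunoprecipitation sequencing of 2 C2C12 libraries was used through 1 peak list. Per the submitters' processing notes, TopHat2 2.0.6 aligned the reads to mm9 and MACS2 2.0.9 called the peaks. Per the file headers, the Flag-Zc3h10 alignment was the treatment and the GFP alignment the control. The q-value cutoff was 0.01, and at most 2 tags per position were kept (32.6% and 30.3% of tags remained). Tags of 51 bases were extended to 500. The authors' deposited signal is the pileup at the summit, and their deposited fold enrichment is its ratio to the local control level. Their −log10 p-values and −log10 q-values, per the file headers, are the caller's and served only to filter peaks. Start, end, summit and width are 1-based bases of mm9. Intervals were taken as 95% exact (Clopper-Pearson).

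Peaks were sorted and joined when a start lay at most 10000 bases after the largest end so far. A gap is the number of bases between 2 peaks. Loci were named by a rule: those of 5 or more peaks, the 5 most and 5 least even of 3 or more peaks by the ratio of highest to lowest pileup, the 5 with the highest enrichment, the 5 with the highest pileup, and the gaps nearest to the limit; the pairs of one layout and the longest locus were named after their values were seen. The members, the rule and the comparisons were chosen with earlier results of these data known. No test across conditions was possible with 1 library each. The joining was checked on made-up positions with known loci. Alternatives covered the joining distance, filters on peaks, sequences, regions left out and the measure of height. No gene or sequence is given, because no mm9 genome or annotation was used. Python 3.11.15, numpy 2.4.6, pandas 2.3.3, scipy 1.17.1 and matplotlib 3.10.9 were used.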

Additional observations from a re-analysis of the deposited data

Results flagged for a closer look

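On random or unplaced sequences, which the choice of chromosomes leaves out, the list holds 9 peaks. None of the 9 had a neighbour within 10000 bases (0 of 9), so their inclusion leaves the 397 clustered peaks as they are.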

How the results depend on the processing

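With 1 library per group, a median was counted as moved when it left its own 95% binomial interval over peaks or loci, and a count when it changed over 1.5 times. Of 77 recomputed values, 58 did not move by this measure and 19 did. The 58 include the values with random or unplaced sequences added, which could not change, as none of those peaks had a neighbour. They also include those without the proximal end of chromosome 9, which kept 395 of 397 peaks and could hardly change. Joining over 1000 bases left 187 peaks in 90 loci, with a median gap of 368 bases, a median pileup ratio of 1.48, a fold enrichment ratio of 1.19, a width of 1115 bases and a pileup of 202. Joining over 5000 bases gave a median gap of 1135 bases and a pileup ratio of 1.68. At a −log10 q of at least 10 the median width was 1149 bases, fold enrichment 3.37 and pileup 164. At a fold enrichment of at least 2 the median pileup ratio was 1.68, fold enrichment 3.6 and pileup 98. Without loci with a region 5500 to 6000 bases wide the median width was 917 bases and the pileup 100. Height as fold enrichment gave a median ratio of 1.35, and loci of 3 or more peaks a pileup ratio of 3.02. The cause of these shifts was not tested, apart from the limits that the joining distance and the filters set by construction. The count of 34 loci with the highest peak at an end was 31 by fold enrichment and 34 by pileup minus control, both chosen after seeing the data. No paired analysis was possible because there is 1 library for each condition. Low pileups and low control levels limit the ratios, and at 13 clustered peaks the fold enrichment is a lower bound.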
